A study of Homo sapiens with 6 samples.

Results

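The fatty acid desaturases and elongases examined here are the genes named SCD, SCD5, FADS1, FADS2, FADS3, ELOVL1, ELOVL5, ELOVL6 and ELOVL7 in the deposited expression table. They were chosen by gene symbol from a list of 10 genes, of which 9 are described and 1 was not analysed here, and all 9 passed the expression filter. The table holds 38041 genes, and 12281 of them, those that reached an FPKM of 1 in 3 or more libraries, were tested. RNA sequencing compared HCT116 cells stably transfected with EPHX2 (overEXP) with HCT116 cells carrying an empty vector (NC), with 3 libraries in each group. HCT116 is an established human colorectal carcinoma line, and EPHX2 encodes soluble epoxide hydrolase, which opens epoxides of polyunsaturated fatty acids. The study's methods describe infection with a lentivirus and selection with puromycin. The promoter that drives the transgene, and whether each line is a clone or a pool, are not given in the sources used here. One label field describes the NC cells as ordinary cultured cells, whereas the sample titles and the methods describe an empty vector. FPKM counts sequenced fragments, divided by the exon length and by the number of mapped reads.

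Desaturases put double bonds into fatty acyl chains, and elongases add carbon units to them, at the membrane of the endoplasmic reticulum. SCD and SCD5 make monounsaturated from saturated acyl-CoAs, FADS1, FADS2 and ELOVL5 work on polyunsaturated chains, and ELOVL1, ELOVL6 and ELOVL7 extend saturated chains. Arachidonic acid, a product of this pathway, is a source, among others, of epoxides that soluble epoxide hydrolase acts on. Sterol regulatory element-binding proteins, which act together with the factor NF-Y, are known activators of several of these genes.

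The sequence before the start of transcription is shown for a pair of genes with higher values in overEXP cells (SCD and ELOVL5) and a pair with lower values (FADS3 and ELOVL1), because these windows hold the letters of the NF-Y box. All 9 genes had at least 1 RefSeq window of 300 bases on GRCh38.p14, running from 250 bases before to 50 bases after the start. The windows of FADS2, from bases 61815953 and 61816154 of chromosome 11, overlap each other. They end before its canonical transcript begins at 61828300, so the sequence around that start was not searched. The FADS2 match began at base 6 after the start of its window's transcript. The letters CCAAT, searched on both strands and so also read as ATTGG, occurred in 6 of the 10 windows of these genes and in 34.6% of all 35116 windows. The letters TCACNCCAC of a sterol regulatory element, searched on both strands, occurred in 0 of the 10 windows and in 1.13% of all windows. The windows of FADS1, ELOVL6 and ELOVL7 held neither set of letters, which says only that these letters are not in these windows. The 250 bases before the start are given 5′ to 3′ on the strand of the gene, with CCAAT or ATTGG in capitals.
SCD (chr10:100346983-100347232, plus strand): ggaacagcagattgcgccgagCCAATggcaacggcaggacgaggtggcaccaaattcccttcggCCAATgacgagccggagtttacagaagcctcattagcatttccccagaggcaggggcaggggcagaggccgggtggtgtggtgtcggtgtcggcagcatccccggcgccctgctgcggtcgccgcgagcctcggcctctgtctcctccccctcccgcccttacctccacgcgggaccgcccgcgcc
ELOVL5 (chr6:53348951-53349200, minus strand): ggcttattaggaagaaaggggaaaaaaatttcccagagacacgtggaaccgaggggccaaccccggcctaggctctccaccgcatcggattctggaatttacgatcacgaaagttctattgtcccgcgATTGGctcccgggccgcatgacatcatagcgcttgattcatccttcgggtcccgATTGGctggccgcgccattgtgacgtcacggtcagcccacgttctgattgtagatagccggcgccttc
FADS3 (chr11:61891546-61891795, minus strand): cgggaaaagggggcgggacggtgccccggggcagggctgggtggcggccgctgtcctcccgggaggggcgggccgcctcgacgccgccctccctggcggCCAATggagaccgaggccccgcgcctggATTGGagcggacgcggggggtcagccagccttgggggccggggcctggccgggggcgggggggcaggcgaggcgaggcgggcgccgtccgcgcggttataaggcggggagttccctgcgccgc
ELOVL1 (chr1:43368012-43368261, minus strand): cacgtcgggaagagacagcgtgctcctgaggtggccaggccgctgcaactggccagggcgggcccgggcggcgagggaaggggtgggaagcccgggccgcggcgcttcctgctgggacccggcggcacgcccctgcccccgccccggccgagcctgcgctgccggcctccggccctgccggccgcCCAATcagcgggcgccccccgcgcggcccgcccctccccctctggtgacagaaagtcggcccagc
The matches began 229 and 186 bases before the start of SCD, 122 and 68 bases before that of ELOVL5, 151 and 123 bases before that of FADS3 and 65 bases before that of ELOVL1. The letters were thus present before genes whose values were higher and before genes whose values were lower in overEXP cells. A match is a description of the sequence and not a measured binding site.

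EPHX2 had an FPKM of 157, 162 and 181 in overEXP replicates 1, 2 and 3, against 1.53, 1.96 and 1.5001 in NC replicates 1, 2 and 3 (log2 fold change 5.98, adjusted p = 1.63e-07 from limma), so EPHX2 was high in the 3 libraries labelled overEXP and low in the 3 labelled NC. Mitochondrially encoded RNA took 34.9% to 39.9% of the summed FPKM in overEXP libraries and 29.6% to 34.6% in NC libraries. The epithelial markers EPCAM, KRT8, KRT18, KRT19, CDH1 and CLDN4 were read in all 6 libraries, with a summed FPKM of 969 to 1128 in overEXP and of 1067 to 1397 in NC. The markers of endothelium, of hepatocytes and of adipocytes, taken list by list, each summed to at most 0.357 in any library. Those of leukocytes, nearly all of it CD68, summed to between 5.41 and 8.56 in overEXP and between 6.99 and 7.14 in NC. The 5 fibroblast markers summed to 12.2 in overEXP replicate 2, to 2.42 and 3.50 in the other overEXP libraries and to between 2.32 and 2.76 in NC. Of these markers, COL1A2 had an FPKM of 2.41 in overEXP replicate 2 and at most 0.298 elsewhere, and LUM had one of 1.37 there and was listed at 0 in the other 5 libraries. The 8 markers of differentiated colon epithelium summed to an FPKM of 299 in overEXP replicate 2, whereas they summed to 0.0877 and 0.217 in the other overEXP libraries and to between 0.0683 and 0.181 in NC libraries. In that library 129 genes had an FPKM of at least 1 while they were under 0.1 in each of the others, against 0 to 7 such genes in each of the remaining libraries. Values without overEXP replicate 2 are therefore given for those of the 9 genes whose groups did not overlap.

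Among the desaturases that make monounsaturated fatty acids, SCD rose in overEXP cells, and SCD5 did not pass the test. SCD (ENSG00000099194) is the stearoyl-CoA desaturase, which makes oleate and palmitoleate, and its gene spans bases 100347233 to 100364826 of chromosome 10 (GRCh38, plus strand), with 6 exons in the canonical transcript of GENCODE v44. The FPKM of SCD was 191, 202 and 228 in overEXP replicates 1, 2 and 3, against 119, 114 and 115 in NC replicates 1, 2 and 3. All overEXP libraries lay above all NC libraries, with overEXP replicate 3 the highest. The mean was 207 ± 19.3 in overEXP and 116 ± 2.93 in NC (SD, n = 3 libraries each). The log2 fold change on log2(FPKM + 1) was 0.82 (standard error 0.08, 95% interval 0.63 to 1.02), and limma gave an adjusted p of 0.00799 over all genes tested. SCD ranked 86 from the top among the 12281 log2 fold changes, and by its mean level it stood 130th in overEXP and 230th in NC. Without overEXP replicate 2 the log2 fold change of SCD was 0.84 (adjusted p = 0.0263 from limma). SCDP1, a processed pseudogene named for SCD, had an FPKM of 0.384 to 0.476 in overEXP and of 0.266 to 0.541 in NC, so few fragments were assigned to it.

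SCD5 (ENSG00000145284), the second human stearoyl-CoA desaturase, lies on the minus strand of chromosome 4 from 82629539 to 82798796. Its FPKM was 5.89, 6.79 and 7.36 in overEXP replicates 1, 2 and 3, against 5.95, 6.16 and 6.52 in NC replicates 1, 2 and 3. The groups overlapped, with overEXP replicate 1 below all NC libraries. The log2 fold change of SCD5 was 0.09, with a 95% interval of -0.12 to 0.30 (adjusted p = 0.591 from limma). SCD was thus the main stearoyl-CoA desaturase transcript in both groups, and SCD over SCD5 gave ratios of FPKM of 32.4, 29.7 and 31.0 in overEXP libraries, against 20.1, 18.6 and 17.6 in NC libraries.

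**Figure D1:**
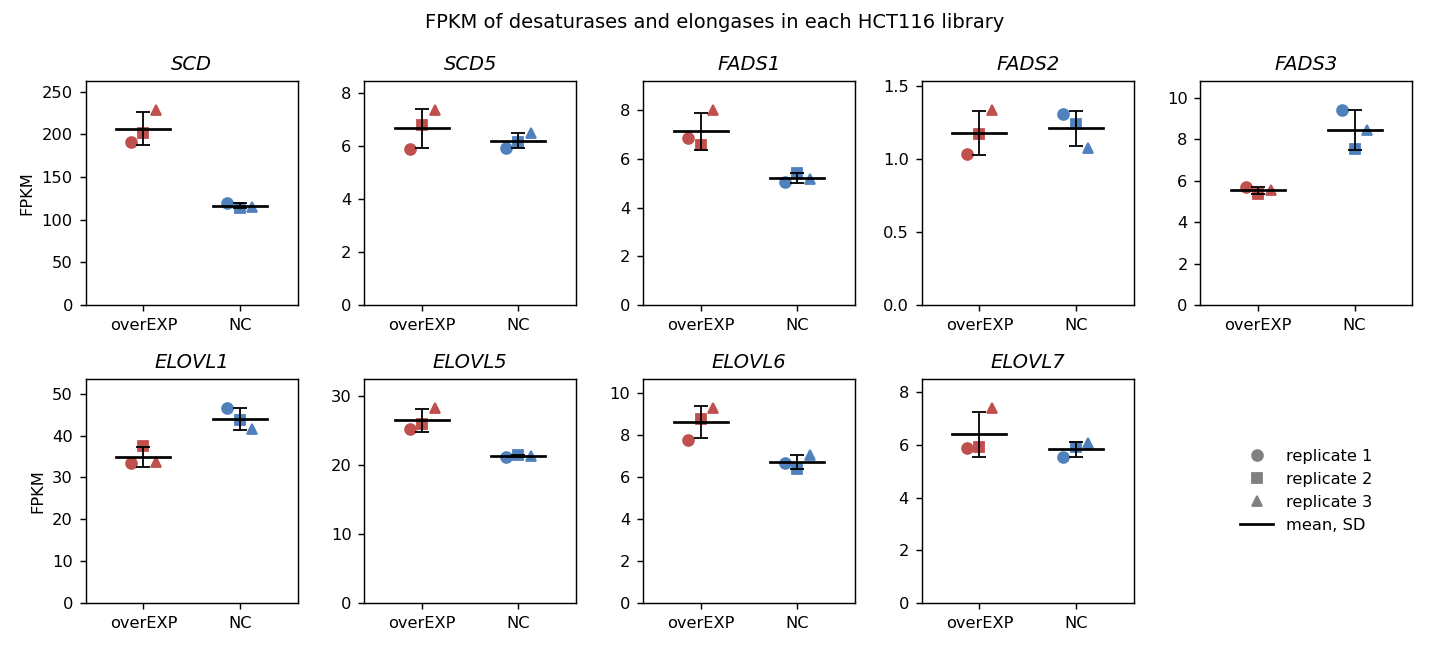
FPKM of the 9 desaturase and elongase genes, 1 panel per gene, with overEXP left of NC. Each point is a library (circle, square and triangle for replicates 1, 2 and 3), the black line is the mean and the bar the SD of 3 libraries, and each vertical axis starts at 0 with its own scale. SCD lies at 191 to 228 in overEXP and 114 to 119 in NC, FADS3 at 5.34 to 5.70 in overEXP and 7.50 to 9.39 in NC, and the groups of SCD5, FADS2 and ELOVL7 overlap.

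The FADS genes did not share a direction. FADS3 fell in overEXP cells, FADS1 had higher values that did not pass the test, and FADS2 was low and overlapped between the groups, as the panels of FPKM per library show. FADS2, FADS1 and FADS3 lie side by side on chromosome 11. FADS2 (ENSG00000134824) runs on the plus strand from 61792980 to 61867354, FADS1 (ENSG00000149485) on the minus strand from 61799627 to 61829318, and FADS3 (ENSG00000221968) on the minus strand from 61873519 to 61892051. The annotated FADS1 and FADS2 genes overlap on opposite strands, and whether the counting used strand is not given in the sources used here, so reads from the shared stretch cannot be assigned with certainty.

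FADS2 encodes the desaturase of the first step towards arachidonic acid. Its FPKM was 1.03, 1.17 and 1.33 in overEXP replicates 1, 2 and 3, against 1.31, 1.24 and 1.08 in NC replicates 1, 2 and 3. FADS2 had the lowest level of the 9 genes in both groups, close to the expression filter. Its log2 fold change was -0.02, with a 95% interval of -0.25 to 0.21 (adjusted p = 0.92 from limma), and its sign changed between processing settings.

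FADS1 encodes the desaturase of the last step to arachidonic acid. Its FPKM was 6.86, 6.56 and 8.001 in overEXP replicates 1, 2 and 3, against 5.07, 5.44 and 5.16 in NC replicates 1, 2 and 3. The groups did not overlap, and the means were 7.14 ± 0.76 in overEXP and 5.22 ± 0.19 in NC (SD, n = 3 libraries each). The log2 fold change of FADS1 was 0.38 (standard error 0.09, 95% interval 0.18 to 0.59), with an adjusted p of 0.0534 from limma, so it missed the threshold of 0.05. Without overEXP replicate 2 it was 0.44 (adjusted p = 0.0936 from limma).

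FADS3 encodes a related desaturase that puts a double bond into sphingoid bases. Its FPKM was 5.70, 5.34 and 5.55 in overEXP replicates 1, 2 and 3, against 9.39, 7.50 and 8.43 in NC replicates 1, 2 and 3. The overEXP libraries lay close together and below all NC libraries, with means of 5.53 ± 0.18 in overEXP and 8.44 ± 0.94 in NC (SD, n = 3 libraries each). The log2 fold change of FADS3 was -0.53 (standard error 0.09, adjusted p = 0.0275 from limma), the 220th lowest of all genes tested. FADS3 did not pass without overEXP replicate 2 or 3 or without NC replicate 1, 2 or 3, with log2 fold changes from -0.60 to -0.46 and adjusted p from 0.0522 to 0.117 from limma. The canonical FADS3 transcript has a GC content of 62.7%, within the highest of 5 equal bins of the genes tested. In that bin the median log2 fold change was -0.13, against -0.02 in the lowest bin, and the median gene of that bin lay 0.19 above the mean of the 6 libraries in NC replicate 1 on the log2 scale, against 0.00 and 0.01 in NC replicates 2 and 3. With a correction for GC content, chosen after the data were seen, the log2 fold change of FADS3 was -0.38 (adjusted p = 0.0273 from limma).

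Of the elongases, ELOVL5 and ELOVL6 had higher and ELOVL1 lower values in every overEXP library than in every NC library, and none of these passed the test over all genes. ELOVL5 (ENSG00000012660), which extends polyunsaturated acyl-CoAs on the way to arachidonic acid, lies on the minus strand of chromosome 6 from 53267398 to 53349179. The FPKM of ELOVL5 was 25.2, 25.9 and 28.3 in overEXP replicates 1, 2 and 3, against 21.2, 21.5 and 21.3 in NC replicates 1, 2 and 3. The NC libraries differed by less than 1 FPKM and lay below all overEXP libraries. Its log2 fold change was 0.30 (standard error 0.07, 95% interval 0.14 to 0.45, adjusted p = 0.0522 from limma), and 0.31 without overEXP replicate 2 (adjusted p = 0.119).

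ELOVL6 (ENSG00000170522), which extends palmitate to stearate and so makes the substrate of SCD, lies on the minus strand of chromosome 4 from 110045846 to 110199199. Its FPKM was 7.79, 8.78 and 9.30 in overEXP replicates 1, 2 and 3, against 6.66, 6.40 and 7.06 in NC replicates 1, 2 and 3. The groups did not overlap, although overEXP replicate 1 lay less than 1 FPKM above NC replicate 3. Its log2 fold change was 0.32 (standard error 0.08, 95% interval 0.12 to 0.51, adjusted p = 0.077 from limma), and 0.30 without overEXP replicate 2 (adjusted p = 0.185). The ratio of ELOVL6 to ELOVL5 overlapped between the groups, at 0.33 ± 0.01 in overEXP and 0.31 ± 0.02 in NC (SD, n = 3 libraries each).

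ELOVL1 (ENSG00000066322), which makes saturated and monounsaturated very long chains for ceramides, lies on the minus strand of chromosome 1 from 43363398 to 43368074. Its FPKM was 33.4, 37.6 and 33.6 in overEXP replicates 1, 2 and 3, against 46.6, 43.6 and 41.5 in NC replicates 1, 2 and 3. All overEXP libraries lay below all NC libraries. The log2 fold change of ELOVL1 was -0.33 (standard error 0.08, 95% interval -0.50 to -0.15, adjusted p = 0.0593 from limma), and -0.38 without overEXP replicate 2 (adjusted p = 0.0889). ELOVL7 (ENSG00000164181), an elongase of saturated long chains on the minus strand of chromosome 5 from 60751791 to 60844274, had an FPKM of 5.90, 5.91 and 7.41 in overEXP replicates 1, 2 and 3, against 5.53, 5.92 and 6.07 in NC replicates 1, 2 and 3. Only overEXP replicate 3 lay above the NC libraries, and the log2 fold change of ELOVL7 was 0.11, with a 95% interval of -0.12 to 0.34 (adjusted p = 0.534 from limma).

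Of the 9 genes, 1 rose (SCD), 1 fell (FADS3) and 7 did not pass. Over all genes tested, 1.25% rose and 2.98% fell, or 4.23% in either direction. The groups did not overlap for 4 of the 9 genes with higher values in overEXP (SCD, FADS1, ELOVL5 and ELOVL6) and for 2 with lower values (FADS3 and ELOVL1). Among all genes tested, 9.23% were of the first kind, 21.7% of the second and 30.9% of either kind. The median log2 fold change was 0.11 over the 9 genes and -0.05 over all genes tested. Without overEXP replicate 2, SCD still passed and FADS3 did not (adjusted p = 0.0263 and 0.0871 from limma). The study describes the 3 libraries of a group as 3 cell lines but does not say whether these were derived independently, so a p-value here sets a difference against the spread of libraries that may be close to technical repeats, and a lower level per cell cannot be told apart from fewer cells that express a gene.

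**Figure D2:**
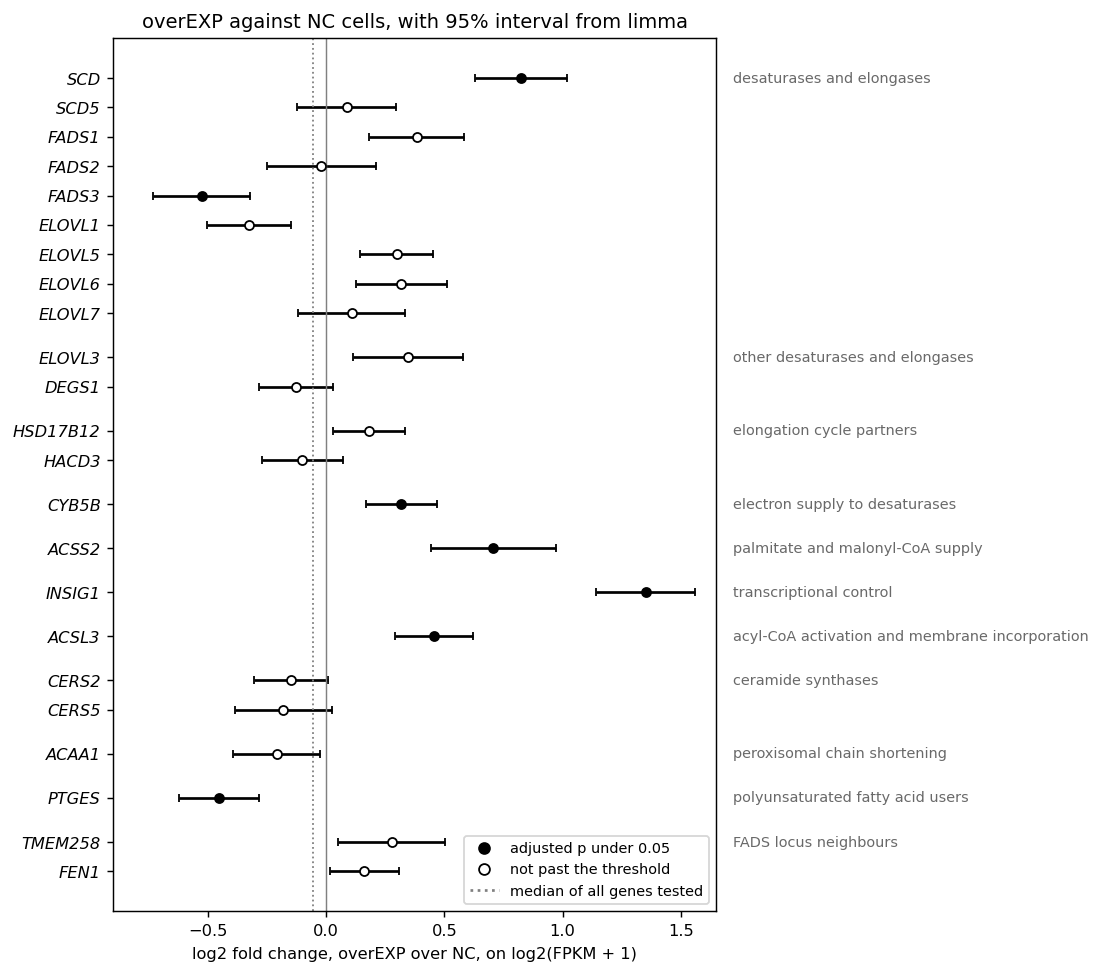
Log2 fold change of overEXP over NC on log2(FPKM + 1), on the horizontal axis, for the 9 desaturases and elongases (top block) and for named genes of 10 lists of related genes (labelled at the right). Bars are 95% intervals from limma, filled points have an adjusted p under 0.05, and the dotted line is the median of all genes tested (-0.05). SCD at 0.82 and FADS3 at -0.53 are the filled points of the top block.

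The order of the levels was alike at the top. SCD, ELOVL1 and ELOVL5 had the highest FPKM in both groups, and FADS2 the lowest. In overEXP cells ELOVL6, FADS1, SCD5 and ELOVL7 followed in this order with ranges that overlapped from each gene to the next, and FADS3 stood 8th, below the range of ELOVL7. In NC cells FADS3 stood 4th, above ELOVL6, SCD5 and ELOVL7, whose ranges overlapped from each to the next, and FADS1 stood 8th, below the range of ELOVL7. FADS1 thus stood above FADS3 in overEXP cells and below it in NC cells.

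Shares within a library do not depend on how that library was scaled, and they are given here without a test. They were not corrected for GC content, which is 49.3% and 62.7% in the canonical transcripts of FADS1 and FADS3. It is 39.9% and 55.2% in those of ELOVL5 and ELOVL1. With the correction for GC content, the log2 fold changes were 0.44 for FADS1, -0.38 for FADS3, 0.32 for ELOVL5 and -0.24 for ELOVL1. How far GC content bears on the shares was not tested. FADS1 made up 50.5%, 50.2% and 53.8% of the summed FPKM of the FADS genes in overEXP replicates 1, 2 and 3, against 32.2%, 38.4% and 35.2% in NC replicates 1, 2 and 3. The share of FADS3 was 41.9%, 40.9% and 37.3% in overEXP libraries, against 59.6%, 52.9% and 57.5% in NC libraries. The summed FPKM of the FADS genes overlapped between the groups, at 13.8 ± 0.93 in overEXP and 14.9 ± 0.81 in NC (SD, n = 3 libraries each). FADS1 was the most abundant FADS transcript in each overEXP library and FADS3 in each NC library.

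Among the elongases the shares of ELOVL1, ELOVL5 and ELOVL6 also differed without overlap, and that of ELOVL7 overlapped. The shares of a library add up to the whole, so a lower share of ELOVL1 goes with higher shares among the others. ELOVL6 made up 10.8%, 11.2% and 11.8% in overEXP replicates 1, 2 and 3, against 8.33%, 8.27% and 9.31% in NC replicates 1, 2 and 3. ELOVL1 made up 46.2%, 48.1% and 42.8% of the summed elongase FPKM in overEXP replicates 1, 2 and 3, against 58.3%, 56.4% and 54.6% in NC replicates 1, 2 and 3. The share of ELOVL5 was 34.9%, 33.2% and 36.0% in overEXP libraries, against 26.5%, 27.7% and 28.1% in NC libraries. The summed FPKM of the 4 elongases was 76.3 ± 3.57 in overEXP and 77.8 ± 2.05 in NC (SD, n = 3 libraries each), and these sums overlapped between the groups. ELOVL1 was the most abundant of these 4 in every library.

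**Figure D3:**
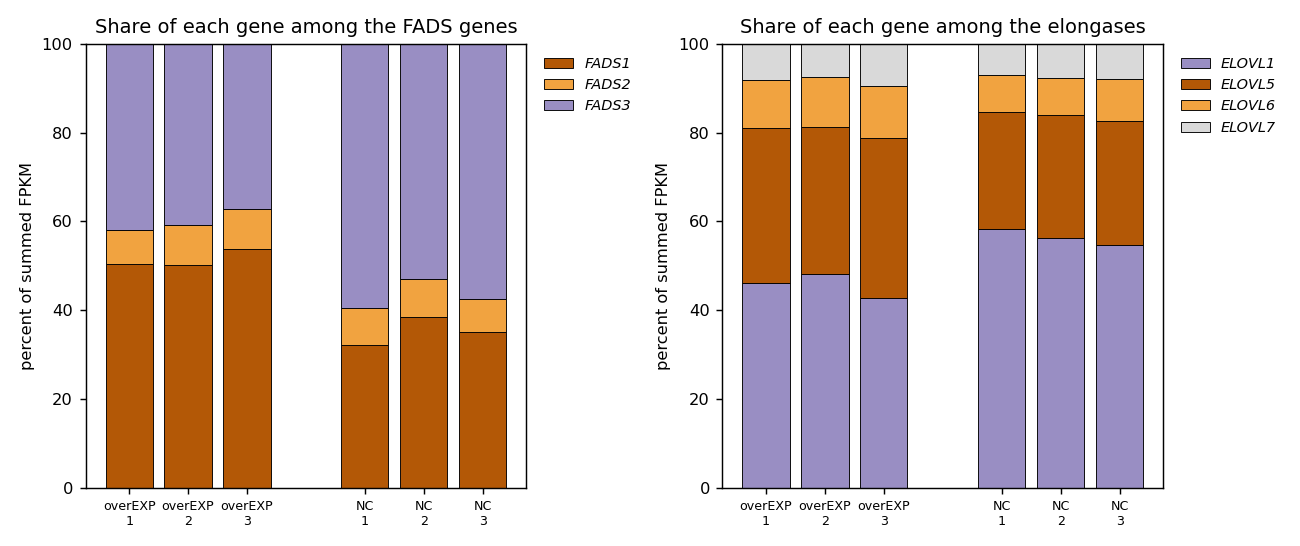
Percent of the summed FPKM taken by each FADS gene (left) and each elongase (right), 1 stacked bar per library, with the 3 overEXP libraries left of the 3 NC libraries. FADS1 takes 50.2% to 53.8% in overEXP and 32.2% to 38.4% in NC, and ELOVL1 takes 42.8% to 48.1% in overEXP and 54.6% to 58.3% in NC.

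SCD made up more of the summed FPKM of the 9 genes than the other genes together. The sum was 304 ± 23.6 in overEXP and 215 ± 5.37 in NC (SD, n = 3 libraries each), and it did not overlap. SCD made up 67.5%, 67.3% and 69.4% of this sum in overEXP replicates 1, 2 and 3, against 54.0%, 53.9% and 54.1% in NC replicates 1, 2 and 3. Relative to FASN, the fatty acid synthase that makes palmitate, the ratio of SCD was 2.005, 2.16 and 2.06 in overEXP libraries, against 1.11, 1.25 and 1.19 in NC libraries. FASN itself averaged 99.8 ± 9.56 FPKM in overEXP and 98.5 ± 8.21 in NC (SD, n = 3 libraries each), with a log2 fold change of 0.02 (adjusted p = 0.928 from limma). The ratio of SCD to ELOVL6 was 24.5, 23.0 and 24.5 in overEXP libraries, against 17.9, 17.8 and 16.2 in NC libraries.

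The genes around the desaturases and elongases were described with 10 lists, in which 67 of 86 genes were tested. Of these 67 genes, 4 rose (INSIG1, ACSS2, ACSL3 and CYB5B) and 1 fell (PTGES), with a median log2 fold change of 0.00, against -0.05 over all genes tested. The shares that rose and fell among all genes tested were 1.25% and 2.98%. Without overlap of the groups, 13 of the 67 genes were higher and 11 lower in overEXP, against 9.23% and 21.7% of all genes tested. Of 3 other desaturases and elongases that were tested (median log2 fold change -0.04), 0 passed by limma, and 1, ELOVL3, was higher at an unadjusted p under 0.05. Among all genes tested, 6.55% were higher and 16.4% lower at an unadjusted p under 0.05, or 22.9% in either direction. ELOVL3, an elongase of saturated very long chains, had an FPKM of 3.99, 4.83 and 5.17 in overEXP replicates 1, 2 and 3, against 3.68, 3.44 and 3.21 in NC replicates 1, 2 and 3 (log2 fold change 0.35, adjusted p = 0.0939 from limma). The sphingolipid desaturase DEGS1 had a log2 fold change of -0.13 (adjusted p = 0.303). ELOVL2, FADS6 and DEGS2 did not pass the expression filter.

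The enzymes that complete each round of elongation gave no call in 5 genes tested by limma (median log2 fold change 0.00), and 1 was higher at an unadjusted p under 0.05. The genes with the smallest adjusted p were HSD17B12, the ketoacyl-CoA reductase (log2 fold change 0.18, adjusted p = 0.149 from limma), and HACD3, a dehydratase (-0.10, adjusted p = 0.447). Of 5 genes that carry electrons to desaturases, cytochrome b5 and its reductases, CYB5B rose, and the list had a median of 0.09. In this list 1 was higher and 1 lower at an unadjusted p under 0.05. CYB5B encodes the cytochrome b5 of the outer mitochondrial membrane, and it had an FPKM of 55.7, 56.9 and 59.4 in overEXP replicates 1, 2 and 3, against 48.2, 45.0 and 44.2 in NC replicates 1, 2 and 3 (log2 fold change 0.32, adjusted p = 0.042 from limma). It did not pass when any one library was left out (adjusted p from 0.0578 to 0.177). CYB5A, the form in the endoplasmic reticulum, had a log2 fold change of 0.11 (adjusted p = 0.544). The reductase CYB5R1 was lower without overlap of the groups. Its FPKM was 3.84, 4.45 and 4.67 in overEXP replicates 1, 2 and 3, against 5.72, 5.59 and 5.07 in NC replicates 1, 2 and 3 (log2 fold change -0.28, adjusted p = 0.113 from limma).

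Of 7 genes that supply palmitate and malonyl-CoA, ACSS2 rose, and the list had a median of 0.04. ACSS2 makes acetyl-CoA from acetate, and it had an FPKM of 7.81, 10.9 and 9.69 in overEXP replicates 1, 2 and 3, against 5.496, 5.40 and 5.21 in NC replicates 1, 2 and 3 (log2 fold change 0.71, adjusted p = 0.0228 from limma). It did not pass without overEXP replicate 2 or 3 or any one NC library (adjusted p from 0.0553 to 0.0983). ME1, the malic enzyme that supplies NADPH for fatty acid synthesis, had an FPKM of 14.4, 13.6 and 15.2 in overEXP replicates 1, 2 and 3, against 17.7, 18.3 and 17.4 in NC replicates 1, 2 and 3 (log2 fold change -0.29, adjusted p = 0.0576 from limma), with groups that did not overlap. Of 14 genes of transcriptional control, 1 rose, INSIG1, which holds the sterol regulatory element-binding proteins back in the endoplasmic reticulum and is itself one of their targets. INSIG1 had an FPKM of 24.4, 24.6 and 26.1 in overEXP replicates 1, 2 and 3, against 10.3, 9.27 and 8.09 in NC replicates 1, 2 and 3 (adjusted p = 0.00201 from limma). SREBF1, which encodes the protein of this family best known for fatty acid genes, had an FPKM of 12.3, 14.5 and 15.8 in overEXP libraries, against 11.05, 9.74 and 10.1 in NC libraries (log2 fold change 0.43, adjusted p = 0.0576 from limma), with groups that did not overlap. In the same list SREBF2, SCAP, MBTPS1 and MBTPS2 had log2 fold changes of 0.14, -0.11, -0.07 and 0.05. Each of these overlapped between the groups (adjusted p from 0.445 to 0.754 from limma). The median log2 fold change of this list was 0.06.

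Of 11 genes that activate fatty acids or place them into membrane lipids, ACSL3, a long-chain acyl-CoA synthetase, rose, with a list median of 0.07. In this list 3 were higher and 0 lower at an unadjusted p under 0.05, against 6.55% and 16.4% of all genes tested. The groups did not overlap for 4 with higher and 2 with lower values, against 9.23% and 21.7% of all genes tested. ACSL5, with groups that did not overlap, had a log2 fold change of 0.50 (adjusted p = 0.0576 from limma). The FPKM of ACSL3 was 17.6, 19.2 and 19.9 in overEXP replicates 1, 2 and 3, against 13.4, 12.99 and 13.95 in NC replicates 1, 2 and 3 (log2 fold change 0.46, adjusted p = 0.0215 from limma). Its call was lost when overEXP replicate 2 or any one NC library was left out (adjusted p from 0.0659 to 0.111) and after rescaling to TPM (adjusted p = 0.0891). INSIG1 was the one gene of the 10 lists called higher without overEXP replicate 2 or any one NC library. Of 4 ceramide synthases that were tested, 0 passed by limma and 0 had an unadjusted p under 0.05, with a median of -0.17. The log2 fold changes were -0.15 for CERS2 (adjusted p = 0.237 from limma) and -0.18 for CERS5 (adjusted p = 0.268). Of 7 genes of chain shortening in peroxisomes, 0 passed by limma and 1 was lower at an unadjusted p under 0.05 (median -0.09), and the thiolase ACAA1 had a log2 fold change of -0.21 (adjusted p = 0.164 from limma). Among 6 users of polyunsaturated fatty acids, PTGES fell, with a list median of -0.08. PTGES, the prostaglandin E synthase, had an FPKM of 6.34, 6.19 and 6.94 in overEXP replicates 1, 2 and 3, against 8.92, 9.17 and 9.65 in NC replicates 1, 2 and 3 (log2 fold change -0.45, adjusted p = 0.0228 from limma). It did not pass without overEXP replicate 2 or any one NC library (adjusted p from 0.0652 to 0.122).

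The neighbours of the FADS genes on chromosome 11 gave no call in 5 genes tested by limma (median log2 fold change -0.04), and 2 were higher and 1 lower at an unadjusted p under 0.05. FEN1, a DNA repair nuclease whose gene overlaps the annotated FADS2 gene, and TMEM258 had log2 fold changes of 0.16 and 0.28 (adjusted p = 0.179 and 0.14 from limma). The ferritin gene FTH1 had one of -0.04. RAB3IL1, next to FADS3, had an FPKM of 4.09, 3.92 and 3.68 in overEXP replicates 1, 2 and 3, against 5.60, 4.48 and 4.30 in NC replicates 1, 2 and 3 (log2 fold change -0.24, adjusted p = 0.217). RAB3IL1 and FTH1 were chosen after their values were seen. Of the genes of this stretch that were tested, FADS3 was the one that passed.

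For SCD, FADS3 and FADS1, the genes whose log2(FPKM + 1), centred over the 6 libraries, lay nearest by Euclidean distance were looked up among all genes tested. The nearest to SCD were the ribosomal protein gene RPL39 (distance 0.118), the keratin KRT6A (0.152) and the mitophagy receptor BNIP3L (0.161). Those nearest to FADS3 were the sialyltransferase ST6GALNAC4 (0.0969), KLHL17 (0.105) and SURF6 (0.11). Near FADS1 lay TPRKB (0.0892) and the lysyl oxidase LOXL2 (0.101). Over 6 libraries in 2 groups, such nearness cannot be told apart from a similar difference between the groups.

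For several of these genes the call depended on the processing, and 17 other settings were compared. SCD had log2 fold changes from 0.68 to 0.89 and passed under 16 settings, missing it without a filter on low values (adjusted p = 0.0571 from limma). FADS3 was lower under all 17 settings, from -0.72 to -0.38, and passed under 11. FADS1, ELOVL5 and ELOVL6 were higher under all 17 settings and passed under 5 each, among them median-of-ratios scaling, with log2 fold changes of 0.44, 0.37 and 0.38 (adjusted p = 0.0248, 0.0168 and 0.0207 from limma). ELOVL1 was lower under all 17 settings and passed under 3. Scaling also moved the balance over all genes tested. With the deposited FPKM 154 genes were higher and 366 lower in overEXP, with median-of-ratios scaling 345 and 359, with quantile normalization 330 and 395, and after rescaling to TPM 94 and 852. The median of all genes lay at -0.20 after rescaling to TPM, and relative to it SCD5, FADS2 and ELOVL7 (-0.04, -0.14 and -0.02) were not lower.

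**Figure D4:**
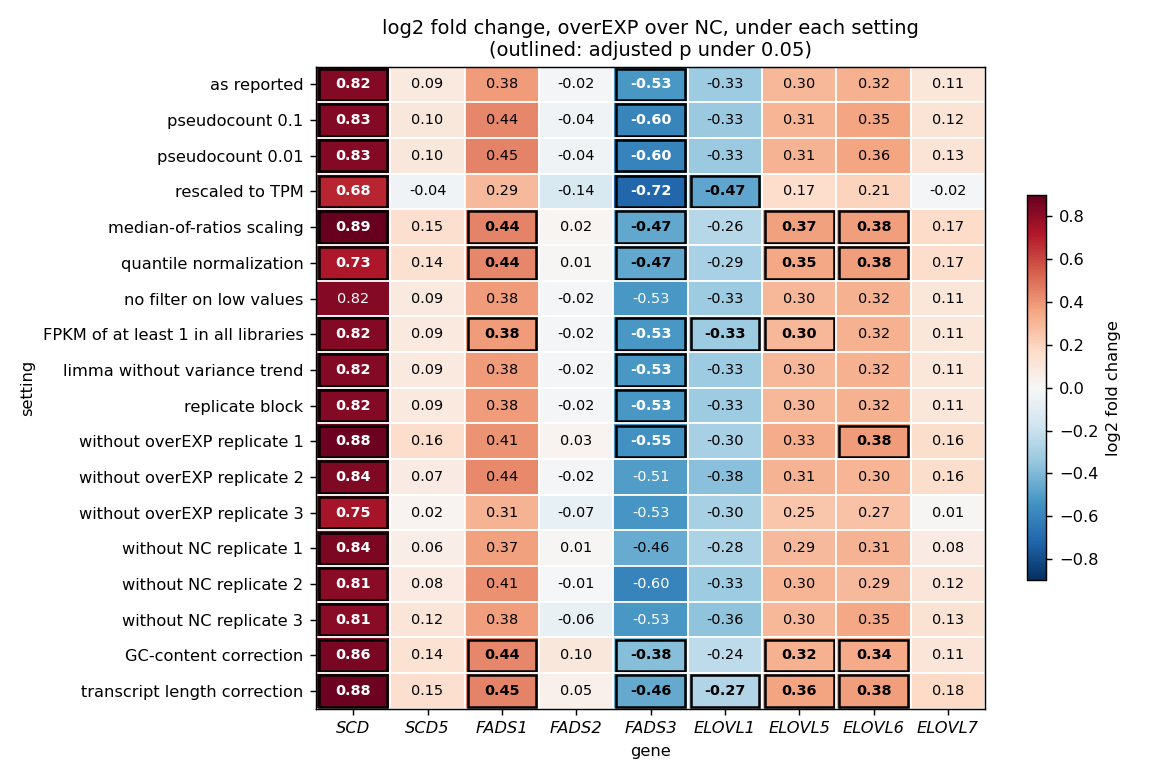
Log2 fold change of overEXP over NC for each of the 9 genes (columns) as reported and under 17 other settings (lines down the page), with red for higher and blue for lower in overEXP. Outlined cells have an adjusted p under 0.05 from limma. SCD is red throughout at 0.68 to 0.89 and FADS3 blue throughout at -0.72 to -0.38, whereas SCD5, FADS2 and ELOVL7 change sign.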

How the data were processed

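According to the study's methods, total RNA from HCT116 cells was sequenced on an Illumina NovaSeq instrument, FastQC was used to filter reads and HISAT2 (version 2.0.4 in the submitters' processing notes) to map them to GRCh38, and assemblies from StringTie were merged by gffcompare. The deposited FPKM values per gene and library were estimated by the authors with StringTie. FPKM keeps no read count, so the depth of each library is unknown and no counting error can be given. The same table holds the authors' own comparison, deposited as a fold change, its log2 value, a p-value and a q-value, which were not used. The kit and its strandedness are not given in the sources used here.

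The test covered the 12281 of 38041 genes that reached an FPKM of 1 in 3 or more of the 6 libraries. Values were transformed to log2(FPKM + 1), with a pseudocount of 1, and overEXP was compared with NC by limma (version 3.58.1, under R 4.3.3) with its variance trend option, no block and a two-sided threshold of 0.05 after Benjamini-Hochberg adjustment over all genes tested. The fitting was tested on simulated data with independent noise for each gene. These data had no trend with GC content and no difference in scaling between libraries, so they do not show how such features bear on the calls. With 3 libraries against 3, an exact permutation test cannot go below p = 0.1 and was not used. Alternatives were other pseudocounts, scalings and filters, a fit without the variance trend, a replicate block, each library left out, and corrections for GC content and transcript length. The last 2 were chosen after the data were seen, and they also centre each library.

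The genes and the 10 lists of related genes were chosen with earlier results of these data known. All 9 desaturases and elongases are named. From each list of related genes, those past the threshold are named, otherwise up to 2 with the smallest adjusted p, and for the 3 genes with the largest differences the 3 nearest profiles are named. FASN, ME1, SREBF1, SREBF2, SCAP, MBTPS1, MBTPS2, CYB5A, CYB5R1, ACSL5 and SCDP1 were named besides these, after their values were seen. A few genes selected this way are not reported here. Positions are from GENCODE v44 and promoter windows from RefSeq. Protein sequences were not analysed here.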

Additional observations from a re-analysis of the deposited data

How the results depend on the processing

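Of 17 alternatives for each gene, SCD, FADS1, ELOVL5 and ELOVL6 kept a higher value in overEXP, and FADS3 and ELOVL1 a lower one, under all of them. SCD5, ELOVL7 and FADS2, which had no call, changed sign. The log2 fold changes of SCD5 and ELOVL7 were -0.040 and -0.016 after rescaling to TPM. That of FADS2 was 0.017 with median-of-ratios scaling, 0.0076 with quantile normalization, 0.099 with the GC correction and 0.046 with the length correction, and it ranged from -0.071 (without overEXP replicate 3) to 0.028 (without overEXP replicate 1) when 1 library was left out.

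Over all genes tested, 154 were higher and 366 lower in overEXP. The counts were 94 and 852 after rescaling to TPM, 345 and 359 with median-of-ratios scaling, 330 and 395 with quantile normalization, 3 and 2 without a filter on low values, where many more genes are tested, 409 and 392 with the GC correction and 532 and 552 with the length correction. Leaving out 1 library gave 23 to 199 higher and 21 to 383 lower genes. Of the desaturases and elongases, 4 were higher with median-of-ratios scaling, quantile normalization, the GC correction or the length correction, 3 with an FPKM of at least 1 in all libraries, 0 without a filter and 1 to 2 with 1 library left out. The number lower was 2 after rescaling to TPM, with an FPKM of at least 1 in all libraries or with the length correction, 0 without a filter and 0 to 1 with 1 library left out. Of the 67 related genes, 4 were higher, against 2 after rescaling to TPM, 8 with median-of-ratios scaling, 7 with quantile normalization, 1 without a filter, 8 with the GC correction, 10 with the length correction and 1 to 5 with 1 library left out. The number lower was 1, against 2 after rescaling to TPM, 0 without a filter and 0 to 1 with 1 library left out. The cause of these changes was not tested.

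With the replicate number as a block, 118 genes were higher and 213 lower, and SCD and FADS3 still passed (adjusted p = 0.0183 and 0.0353 from limma). The deviations of same-numbered libraries from their group means correlated at 0.36, -0.02 and 0.37 for replicates 1, 2 and 3. Those of differently numbered libraries correlated at -0.42 to 0.20, below the values for replicates 1 and 3. The sources used here do not pair the libraries, so the main fit had no block, and whether the numbers mark shared handling was not tested. FPKM without read counts gives no limit on what each library could detect.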
